A study of Mus musculus with 10 samples.

Results

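The 5′ external transcribed spacer (5′ ETS) is the stretch of the 45S ribosomal RNA precursor that lies upstream of 18S rRNA. It was taken as positions 1 to 4007 of the 45S sequence in the deposited tables, which gave 4007 of 13400 45S positions, and of 13591 positions in all when 191 positions of U2 RNA are added. No measured value was used to choose these positions. Positions are counted from 1 at the start of that sequence, and 18S was taken to begin at position 4008, directly after the spacer.

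RNA polymerase I transcribes the precursor as 1 long RNA that holds 18S, 5.8S and 28S rRNA separated by spacers. The 5′ ETS is removed by cleavage and exonuclease digestion, and an early cut within it, which needs the U3 small nucleolar RNA, is among the first steps of processing. Spacer fragments are short-lived, so read ends inside the spacer report on precursor and on processing intermediates more than on mature ribosomes. Ends at its border with 18S could not be assigned to precursor or to mature 18S here.

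The libraries were made by RiboMeth-seq, in which total RNA is broken by mild alkaline hydrolysis and read ends are counted at each position. A ribose with a 2′-O-methyl group protects the bond beside it, so a methylated position takes few ends. There were 10 libraries in 5 groups of 2, labelled replicates A and B and described in the labels as biological replicates. The first group was mouse embryonic stem cells (ESC) with no treatment. The other 8 libraries came from neurons made from mouse ESC by doxycycline-induced Ngn2, a transcription factor that drives neuronal fate, and every one of these received an antisense oligonucleotide (ASO) at 10 uM by free uptake, with RNA taken 72 to 96 h later. In the Snord101 set, 2 libraries had the Snord101 ASO and 2 a non-targeting control ASO. The Snord89 set had 2 libraries with the Snord89 ASO and 2 with its own non-targeting control. Snord101 and Snord89 are box C/D small nucleolar RNAs, a class that guides 2′-O-methylation, and the study asked which sites they guide. No marker gene and neither snoRNA can be read from these tables, so cell identity and the extent of knockdown were not checked here.

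Both targeting ASOs are 20-base gapmers with 2′-O-methoxyethyl (MOE) wings of 5 bases on each side of a 10-base DNA gap. The Snord101 ASO is shown because it is what sets its libraries apart from their controls, and the capitals mark the gap.
Snord101 ASO: gggtaTCCGACAATTcaagt

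Library depth was 16170997 and 18914207 45S ends in ESC and 79070492 to 143176321 in the neurons, of which 0.506% to 0.930% fell in the 5′ ETS (399927 to 919625 ends in the neurons, 134659 and 175955 in ESC). The ESC table counts 5′ ends only and the neuron tables count 5′ and 3′ ends together, so cell type and the kind of end counted cannot be told apart, and ESC values are set beside neuron values without a test. Values below are read ends per 1000000 45S ends of the same library (EPM). Replicates of a group had Pearson correlations of 0.920 to 0.973 across 5′ ETS positions (log2 EPM, a description across positions). The pair that differed most was the control pair of the Snord101 set, with a chi-square per degree of freedom of 20.8, against 1.46 to 5.43 in the other groups. Its control A had 180.0 EPM in positions 2901 to 3000, where control B had 67.7 and the Snord101 ASO libraries 65.6 and 72.7. Counts of Snord101 calls are therefore also given without control A. Hydrolysis ran for 1 to 12 min, and the time used for each library is not given in the sources used here.

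The level of the whole spacer was 9303 and 8327 EPM in the ESC libraries A and B. The neuron controls had 6678 and 6423 in the Snord101 set and 5707 and 6258 in the Snord89 set. Spread over its length, the spacer took 2.32 and 2.08 EPM per position in ESC and 1.42 to 1.67 in the control neurons, whereas 18S took 160.0 to 180.0 in the same controls. Spacer RNA was thus a small part of the rRNA sequenced in every library, and both control sets had lower shares than ESC.

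**Figure D1:**
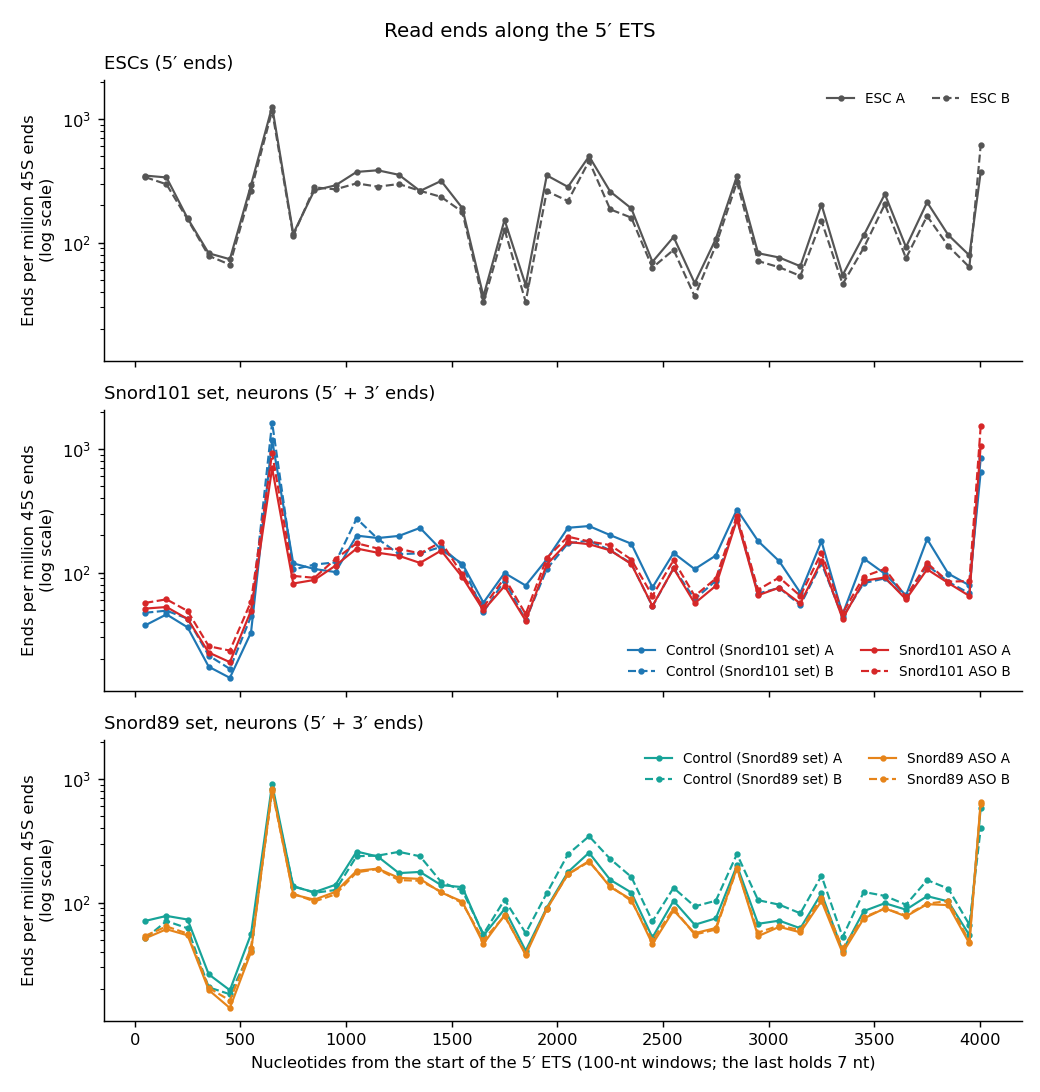
Read ends per 1000000 45S ends (EPM, log axis) in consecutive windows of 100 positions along the 5′ ETS (the last window holds 7), in 3 panels for ESC, the Snord101 set and the Snord89 set, with a solid line for replicate A and a dashed line for replicate B of each group. The window at 601 to 700 stands out in every library, and the ESC libraries reach higher than the neurons in the first 600 positions.

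Ends were unevenly spread along the spacer. The window at 601 to 700 held the most ends in control neurons, 1181 and 1638 EPM in the Snord101-set controls and 910.0 and 827.2 in the Snord89-set controls, beside 1260 and 1163 in ESC. The next highest in control neurons were 4001 to 4007, 2801 to 2900, 2101 to 2200 and 1001 to 1100, with means of 620.8, 261.0, 254.3 and 242.3 over the 4 controls. The windows with the fewest were 401 to 500, 301 to 400 and 501 to 600, at means of 17.1, 21.4 and 43.3. In control neurons the windows with the fewest ends thus lay just upstream of the window with the most.

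ESC and neurons lay apart in the stretch ahead of the early cleavage region (positions 1 to 599). It held 1287 and 1194 EPM in the ESC libraries. The Snord101-set controls held 183 and 220.3 and the Snord89-set controls 323 and 263. As a percentage of the ends in positions 751 to 3987, a measure that does not depend on the mature rRNA, these were 20.5% and 22.7% in ESC and 3.99% to 8.51% in the 8 neuron libraries. No neuron library reached either ESC library on either scale.

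The early cleavage region (positions 600 to 750) took a similar amount in both cell types, 1347 and 1249 EPM in ESC beside 1247 and 1698 in the Snord101-set controls and 997 and 915 in the Snord89-set controls. Most of its ends lay in 3 clusters. The first, at positions 649 to 653, held 47.8% and 47.0% of the region's ends in ESC and 29.9% to 33.0% in the 8 neuron libraries. The second, at 656 to 658, held 18.2% and 17.2% in ESC and 9.26% to 12.7% in the neurons. The third, at 672 to 697, held 7.40% and 7.94% in ESC and 42.0% to 46.6% in the neurons. The order was therefore the first cluster ahead of the third by a wide margin in ESC and the third ahead of the first in every neuron library. The cluster bounds were drawn after the profiles were seen, so these shares describe the libraries and are not a test.

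**Figure D2:**
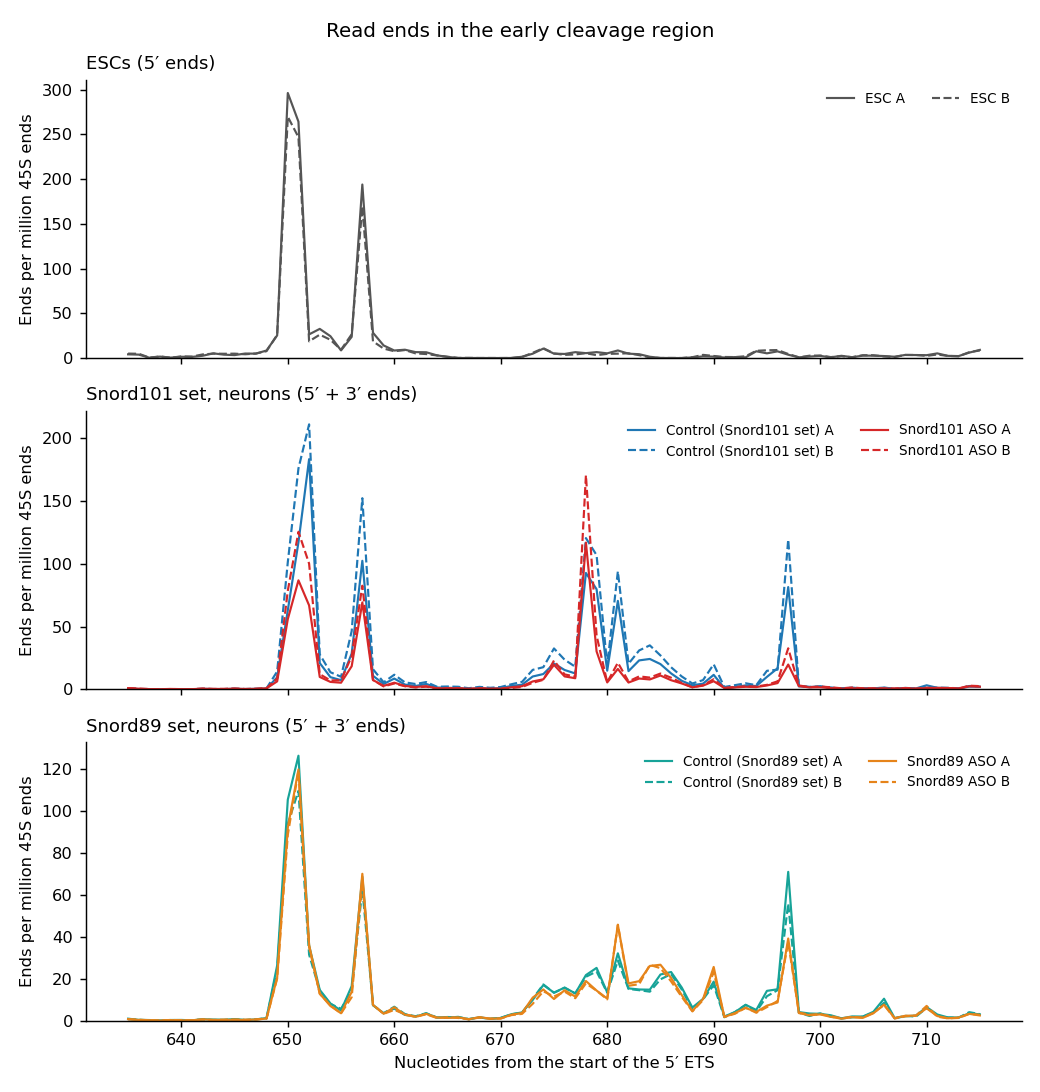
Read ends per 1000000 45S ends (EPM, linear axes that differ between panels) at each position around the 3 end clusters, in panels for ESC, the Snord101 set and the Snord89 set, with a solid line for replicate A and a dashed line for replicate B of each group. In ESC the ends concentrate at positions 650, 651 and 657, while neurons show further ends from 672 to 697.

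Position 650 had 296.2 and 269.6 EPM in ESC, 63.0 and 101.3 in the Snord101-set controls and 105 and 93.8 in the Snord89-set controls. Position 651 had 264 and 247 in ESC, against 117 and 176 and then 126 and 109 in the same controls. Position 652 had 26.4 and 18.7 in ESC, 183 and 211 in the Snord101-set controls and 35.9 and 31.5 in the Snord89-set controls. Among the 5 positions of the first cluster, the strongest end thus sat at 650 in ESC, at 652 in the Snord101-set controls and at 651 in the Snord89-set controls. The 2 control sets had nominally the same treatment, so position 652 differed between control neurons of separate sets by more than the spread within either set, with no test because the tables were made separately.

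Within the third cluster, position 697 had 81.4 and 119 EPM in the Snord101-set controls and 70.9 and 55.9 in the Snord89-set controls, but 3.70 and 4.51 in ESC. Position 678 had 92.6 and 120.4 in the Snord101-set controls, 21.8 and 20.9 in the Snord89-set controls and 5.45 and 5.38 in ESC. At position 687 ESC had 0 ends in both libraries, while the neurons had 507 to 1496. A count of 0 allows up to 3 ends, which is 0.159 and 0.186 EPM at these depths (counting error only), below the 4.73 of the lowest neuron library.

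End peaks were defined as positions whose ends reached at least 5 times the weighted mean count of the 6 positions on each side, with that flanking count at 10 or more, in every library of a set. There were 4 such positions in ESC and 5 in each neuron set. Only position 4006, which lies 2 positions before 18S, was a peak in all 3 sets. It had 363.5 and 599.8 EPM in ESC, 643 and 837 in the Snord101-set controls and 573 and 389 in the Snord89-set controls, and it stood 17.4 to 71.6 times above its flanks over the 10 libraries. It held 3.91% to 23.1% of the spacer's ends and counts in the whole-spacer level. Whether these ends come from precursor or from mature 18S was not tested.

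The other ESC peaks were 650, 657 and 2428. Position 657 had 193.9 and 169.6 EPM and was 6.17 and 6.11 times its flanks, and position 2428 had 4.12 and 4.58 EPM from 78 and 74 ends. In both neuron sets the peaks included 697, 2874 and 2889. Position 2874 had 54.7 and 60.3 EPM in the Snord101-set controls, 27.3 and 25.4 in the Snord89-set controls and 2.17 and 1.42 in ESC. Position 2889 had 37.7 and 57.2, then 24.8 and 21.7, and in ESC 0.952 and 1.24. In ESC neither position exceeded 1.04 times its flanks, and in neurons both were at least 6.56 times theirs.

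Position 1686 was a peak in the Snord101 set (5.36 to 6.13 times its flanks), where it had 2.19 to 2.94 EPM. It also stood 5.93 and 7.73 times above its flanks in ESC, where its flanking count was below 10. Position 758 was a peak in the Snord89 set, 6.44 to 7.59 times its flanks, and was 2.54 to 5.36 times them in the Snord101 set. Both were weak sites, with at most 6.59 EPM in any library beside flanks of at most 1.07 EPM.

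The deposited RiboMeth-seq score divides the count at a site by its weighted flanking count and subtracts the quotient from 1, with values below 0 set to 0. A score near 1 thus marks a site with few ends. Scores were read where the flanking count was at least 10 in every library of a set, which held for 2576 positions in ESC, 3957 in the Snord101 set and 3933 in the Snord89 set. The median score there was 0.14, 0.12 and 0.11. A score of 0.75 or more in every library occurred at 220 positions in ESC (8.54%), 42 in the Snord101 set (1.06%) and 26 in the Snord89 set (0.661%). Of these, 17, 32 and 21 had a flanking count of at least 100, so most of the ESC positions rested on low counts.

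The 2 neuron sets shared 24 high-scoring positions, which is 57.1% of the 42 and 92.3% of the 26. All 3 sets shared 19. Among positions with a flanking count of at least 100 in every library of a set, the highest mean scores lay at 4001 to 4005 in all 3 sets, the 5 positions just ahead of the end peak at 4006. At position 4004, for example, the mean score was 0.983 in ESC, 0.997 in the Snord101 set and 0.991 in the Snord89 set. That position had 13 to 58 ends per library beside flanking counts of 806 to 15499, in which the peak at 4006 takes part. Whether any spacer position is methylated was not tested.

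With the Snord101 ASO, both libraries had fewer ends in the early cleavage region, and more at the peak before 18S, than either of their controls. The whole spacer had 5406 and 6533 EPM with the Snord101 ASO against 6678 and 6423 in its controls, so the groups overlapped (ratio 0.907, difference −0.14 on the log2 scale, two-sided exact permutation p = 0.667). The early cleavage region had 751 and 983 against 1247 and 1698, a ratio of 0.591 with no overlap. The stretch ahead of that region, positions 1 to 599, had 236 and 272 against 183 and 220.3, a ratio of 1.26 with no overlap. The Snord89-set controls had 997 and 915 in the early cleavage region and 323 and 263 in positions 1 to 599. In both stretches the Snord101 ASO libraries overlapped these other control neurons. Positions 751 to 3987, the longest stretch, had 3344 and 3743 against 4585 and 3646, a ratio of 0.865 with overlap. The last 20 positions, nearly all of it the peak at 4006, had 1076 and 1534 against 663 and 859, a ratio of 1.70 with no overlap. These differences had opposite signs, and without the last 20 positions the spacer stood at 4331 and 4999 against 6015 and 5564 (ratio 0.804, exact permutation p = 0.333, the smallest that 2 against 2 can give).

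In the Snord89 set the whole spacer had 5093 and 5058 EPM with the ASO and 5707 and 6258 in the controls, a ratio of 0.849 with no overlap (log2 difference −0.24, two-sided exact permutation p = 0.333, the smallest possible). The early cleavage region was 907 and 884 against 997 and 915, a ratio of 0.938. Positions 1 to 599 had 239.5 and 253.2 against 322.9 and 263.3, a ratio of 0.845 with no overlap. Downstream of it, positions 751 to 3987 had 3285 and 3286 against 3793 and 4670, a ratio of 0.781. The last 20 positions had 661 and 635 against 594 and 410, a ratio of 1.31. In EPM, the lower share lay mainly downstream of the early cleavage region.

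Averaged over both sets, with labels permuted within each, the spacer level differed by −0.19 on the log2 scale (two-sided exact permutation p = 0.111). Without the last 20 positions it differed by −0.31 (p = 0.0556 by the same exact permutation, the smallest the design allows), a ratio of 0.807, and all 4 ASO libraries lay below all controls of their set. Fewer precursor molecules and a larger amount of mature rRNA in the denominator cannot be told apart in such shares. The 2 internal spacers were read the same way. Internal spacer 2 stood at 0.787 times its control with the Snord101 ASO and 0.774 times with the Snord89 ASO, without overlap in either set. Internal spacer 1 stood at 1.09 times with overlap and at 0.851 times without.

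**Figure D3:**
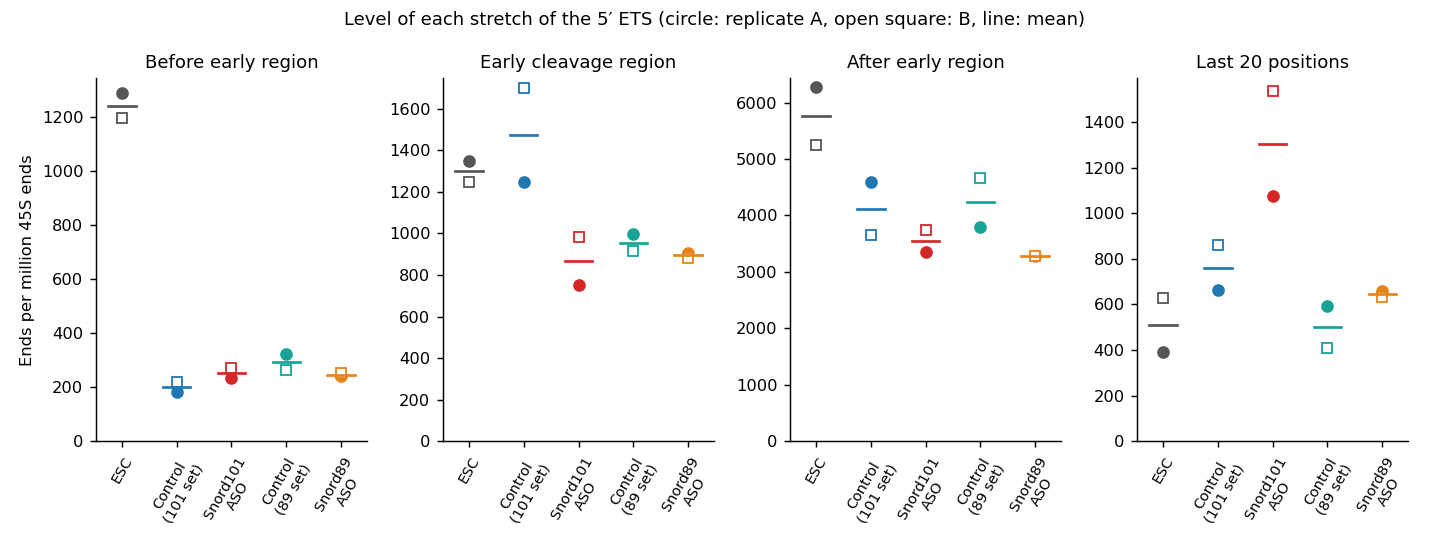
Read ends per 1000000 45S ends (EPM) in 4 stretches of the 5′ ETS, with a filled circle for replicate A, an open square for replicate B and a line for the mean of each of the 5 groups. With the Snord101 ASO the early cleavage region lies below both controls of its own set (751 and 983 against 1247 and 1698), and the last 20 positions lie above them. In the early cleavage region it overlaps the controls of the Snord89 set.

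Changes in single windows were tested with edgeR's quasi-likelihood test on end counts over all 135 windows of the 45S, with Benjamini-Hochberg adjustment. With the Snord101 ASO no 5′ ETS window of 41 passed an adjusted p of 0.05, and the share called over all 45S windows was 0%. The unadjusted p was under 0.05 in 22 of 135 windows over the 45S and in 2 of 41 in the spacer. These were 601 to 700, at 700.3 and 926.6 EPM against 1181 and 1638 (log2 −0.79, SE 0.27, edgeR adjusted p = 0.225), and 4001 to 4007, at 1066 and 1522 against 652.3 and 848.9 (log2 0.79, SE 0.27, edgeR adjusted p = 0.226). In 7 spacer windows (17.1%) both ASO libraries lay below both controls and in 6 (14.6%) above, 5 of the 6 within the first 600 positions. Over all 45S windows these shares were 20% and 18.5%, so the spacer's were not above the background. DESeq2 called 2 spacer windows (4.88%), against 7 of 135 over the 45S (5.19%). Without control A the edgeR test called 2 spacer windows and 13 of 135 over the 45S, and without control B 9 and 60. Each fit that leaves out a library of a set has a lone library in 1 group, which is assumed to vary like the other group of the set.

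With the Snord89 ASO, 40 of 41 windows (97.6%) had a negative log2 change, beside 71.1% of all 45S windows. In 35 (85.4%) both ASO libraries lay below both controls, beside 51.9%, and in 1 (2.44%) above, beside 14.1%. The median window change was −0.32, beside −0.18 over all 45S windows. The window at 2901 to 3000 passed, at 53.5 and 57.3 EPM against 67.4 and 104.7 (log2 −0.64, SE 0.18, edgeR adjusted p = 0.0364), which is 1 of 41 windows against 6.67% called lower and 0.741% called higher over the 45S. It is also the window where control A of the Snord101 set stood apart, and here control B was the higher control. Over 10 alternatives its log2 change ran from −0.92 to −0.28. In edgeR 19 of the 41 spacer windows had an unadjusted p under 0.05, all lower, beside 37 of 135 over the 45S in either direction. The called window was lost with TMM factors and DESeq2 and without either ASO library, and no window of 50 or 200 positions passed. Without control A or control B of that set 36 and 31 spacer windows passed, but so did 103 and 59 of the 135 over the 45S (76.3% and 43.7%).

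**Figure D4:**
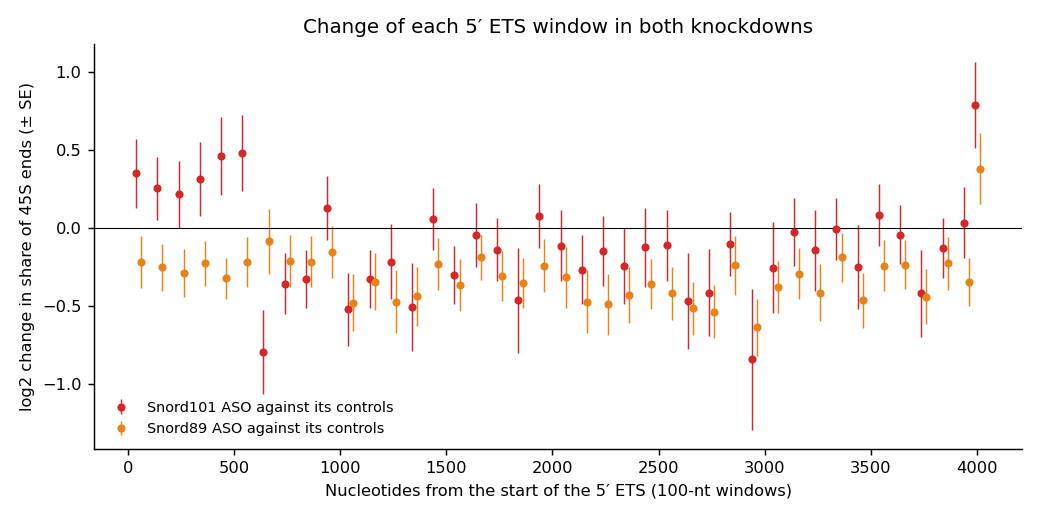
Log2 change with its standard error in the share of 45S ends for each 5′ ETS window, Snord101 ASO and Snord89 ASO each against its own control (edgeR). The Snord101 points dip at 601 to 700 (−0.79) and rise at 4001 to 4007 (0.79), while 40 of 41 Snord89 points lie below 0.

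At single positions, 28 of 3949 tested in the 5′ ETS (0.709%) had a lower share of 45S ends with the Snord101 ASO by edgeR (adjusted p under 0.05 over 12947 positions), against 1.04% called lower over the whole 45S. None was higher, against 0.0541%, although DESeq2 called 1 higher. In edgeR 426 of the 3949 had an unadjusted p under 0.05, 315 lower and 111 higher, against 1799 of 12947 over the 45S in either direction. Outside the spacer 107 of 8998 positions (1.19%) were called lower, so the spacer's rate was below that of the rest of the 45S. The split of 0 higher and 28 lower depended on the scaling and the libraries. With the ends of positions 1 to 3987 as library size, an alternative chosen after seeing the data, it was 156 and 111. These calls were 6.76% of the spacer positions tested, against 6.38% over the 45S in that fit. Without control B, positions were called in both directions. The 28 positions lay between 652 and 3721 and had log2 changes from −3.82 to −1.24. Without control A there were 102 calls (2.58%) and without control B 616 (15.6%), with the spread taken from the 2 ASO libraries alone, and the shares called over the 45S in the same fits were 4.06% and 16.98%. Not all of the 28 remained without ASO library A or B. TMM factors left 7 (0.177%), against 0.394% called over the 45S in that fit.

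The 28 fell into 4 clusters and 2 lone positions when gaps of up to 50 positions were joined. The first cluster, 10 positions from 652 to 697 in the early cleavage region, summed to 169 and 239 EPM with the Snord101 ASO against 518 and 667 in its controls. The second, 8 positions from 792 to 816, summed to 3.87 and 4.75 against 25.7 and 15.8. The third, 3 positions from 1011 to 1056, summed to 9.66 and 12.1 against 34.4 and 46.4, and the fourth, 5 positions from 1161 to 1203, to 2.96 and 3.67 against 27.2 and 14.9. The positions were chosen for being lower in these libraries, so the sums are a description. The first cluster carried most of the ends.

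The largest called change was at position 816, which had 0.352 and 0.395 EPM (47 and 39 ends) with the Snord101 ASO against 6.57 and 4.0 (900 and 572 ends) in its controls (log2 −3.82, SE 0.35, edgeR adjusted p = 0.00109). Position 1191 had 0.726 and 0.842 against 10.9 and 5.27 (log2 −3.37, SE 0.39, edgeR adjusted p = 0.00391). Position 1203 rested on 5 and 6 ends against 92 and 41 (log2 −3.30, SE 0.54, edgeR adjusted p = 0.0215). Over the alternatives run, position 1191 ranged from −3.80 to −2.75 on the log2 scale and passed in all 11, with edgeR adjusted p up to 0.0325, while position 1203 ranged from −3.79 to −2.57 and did not pass in 1 of 9, edgeR with TMM factors (adjusted p = 0.0822). The smallest differences at both positions, −2.75 and −2.57, came without control library A, which had the higher values. In the Snord89 set the controls at 816 and 1191 had 0.752 and 0.988, and 2.62 and 4.22, so the controls of the 2 sets did not overlap at these positions, with the Snord101-set controls higher.

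At the neuronal peak 697 the Snord101 ASO libraries had 19.8 and 32.7 EPM against 81.4 and 119 (log2 −1.94, SE 0.29, edgeR adjusted p = 0.0135). At position 652 they had 66.9 and 100.1 against 183 and 211 (log2 −1.24, SE 0.21, edgeR adjusted p = 0.0236). Position 678, inside the third cluster, had 116.8 and 170.3 against 92.6 and 120.4, overlapping groups (log2 0.43, SE 0.22, edgeR adjusted p = 0.415). Positions 679 and 681 beside it had 30.3 and 42.9 against 79.7 and 107, and 16.3 and 21.2 against 70.4 and 93.9, and both passed (edgeR adjusted p = 0.03 and 0.00334). The 26 positions of the third cluster therefore did not move as a block. The Snord89-set controls had 70.9 and 55.9 EPM at 697, 35.9 and 31.5 at 652, 25.2 and 23.5 at 679, and 32.1 and 28.7 at 681. The Snord101 ASO libraries thus lay below these other controls at 697 and 681 and above them at 652 and 679. The peaks at 2874 and 2889 did not pass (log2 0.13 and 0.32), nor did 4006 (log2 0.79, SE 0.17, edgeR adjusted p = 0.0698).

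**Figure D5:**
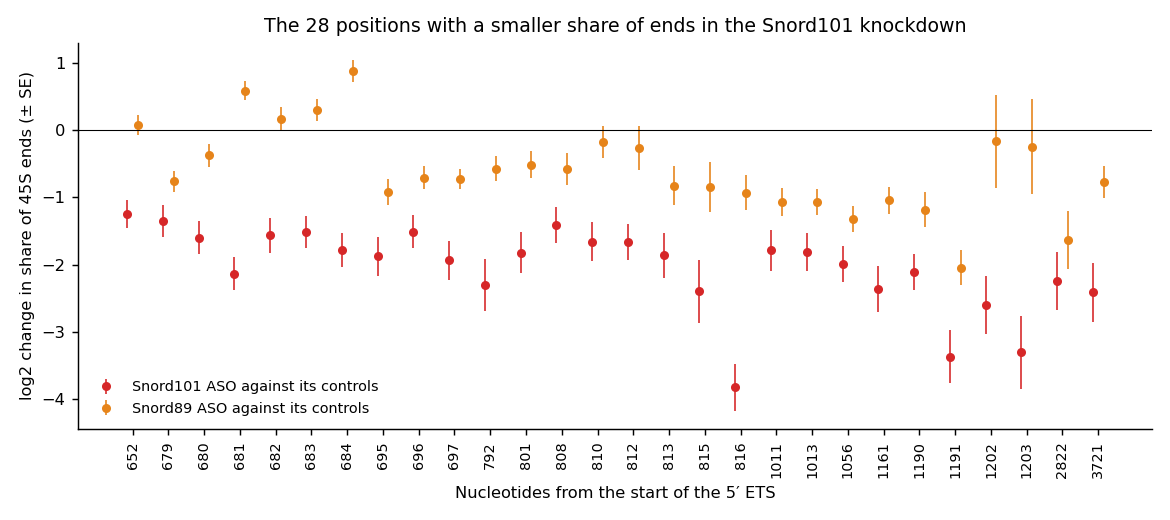
Log2 change with its standard error, Snord101 ASO against its control and Snord89 ASO against its control, at each of the 28 5′ ETS positions with a lower share with the Snord101 ASO. The Snord101 changes run from −3.82 to −1.24, and the Snord89 changes at the same positions from −2.04 to 0.88.

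At the same 28 positions the Snord89 ASO gave log2 changes from −2.04 to 0.88 with a median of −0.72, beside a median of −0.31 over the 3917 spacer positions tested in that set. The change was negative at 23 of the 28, against 88.4% of those 3917 positions and 64.1% over the 45S. Both ASO libraries lay below both controls at 19 of the 28, against 51.5% and 32.7%, and 1 passed. By its own test the Snord89 ASO had 2 called positions, both lower, against 0.109% called lower and 0% higher over 12878 45S positions. Position 1191 had 0.811 and 0.847 EPM against 2.62 and 4.22 (log2 −2.04, SE 0.27, edgeR adjusted p = 0.0396). Position 1009 had 4.83 and 4.48 against 14.1 and 12.2 (log2 −1.50, SE 0.19, edgeR adjusted p = 0.0367). Position 1191 was called in both sets, which is 1 of 28 and 1 of 2. Neither passed with all 4 neuron groups in 1 fit or at a mean count of at least 100. Without control A of the Snord89 set 928 spacer positions passed (23.8%) and without control B 93 (2.39%), again with the spread from the ASO libraries alone, against 21.6% and 5.40% over the 45S.

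Counts were also tested against their own flanks, the quantity behind the score, which sets aside any change that a whole stretch shares. With the Snord101 ASO 8 of 3975 spacer positions passed (edgeR adjusted p under 0.05), 3 higher (0.0755%) and 5 lower (0.126%), against 0.0923% higher and 0.277% lower over the table. The 3 higher were 678, 698 and 701 and the 5 lower were 679, 681, 816, 1056 and 1191, so 5 of 8 lay in the early cleavage region. Position 678 stood at 9.93 and 11.9 times its flanks with the ASO against 3.40 and 3.19 in the controls (log2 1.73, SE 0.11, edgeR adjusted p = 0.00925). At 698 and 701 the ends themselves hardly differed, 2.61 and 3.14 EPM against 2.41 and 2.85 at 698, and the flanks, which hold the peak at 697, went from 12.9 and 17.7 to 3.94 and 5.85. The score at 698 was 0.337 and 0.462 with the ASO against 0.813 and 0.839, and at 701 it was 0.640 and 0.615 against 0.864 and 0.883. Those score differences therefore moved with the neighbouring peak and not with the scored position.

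With the Snord89 ASO 8 of 3965 spacer positions passed against their flanks, 3 higher and 5 lower, against 0.107% higher and 0.19% lower over the table. The higher were 681, 684 and 690, and the lower 679, 687, 1009, 1056 and 1191. Position 681 stood at 2.68 and 2.80 times its flanks against 1.84 and 1.72 (log2 0.62, SE 0.07, edgeR adjusted p = 0.023), and position 679 at 0.759 and 0.783 against 1.45 and 1.41 (log2 −0.89, SE 0.07, edgeR adjusted p = 0.00557). Of the 8 positions in each list 4 were called in both (679, 681, 1056 and 1191). Positions 679, 1056 and 1191 were lower in both sets, and 681 was lower with the Snord101 ASO and higher with the Snord89 ASO. Limma on log2((ends + 1)/(flanking count + 1)) called none of the 8 in either set, and leaving out either ASO library of a set also left 0. Without control A or control B, 116 and 878 spacer positions passed in the Snord101 set (2.92% and 22.1%, against 6.46% and 25.5% over the table) and 91 and 10 in the Snord89 set (2.30% and 0.253%, against 4.52% and 0.9%).

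The difference between the ASO effects was tested directly, as the Snord101 change minus the Snord89 change over the 8 neuron libraries. No window passed of 41, against 0% over the 45S. In edgeR 4 of the 41 had an unadjusted p under 0.05, beside 8 of 135 over the 45S, with the window at 601 to 700 at −0.71 (SE 0.31, edgeR adjusted p = 0.814). Of 3945 positions, 2 passed, against 0.0232% over the 45S, and both lay in the third cluster. Position 681 fell with the Snord101 ASO and had 45.6 and 45.7 EPM with the Snord89 ASO against 32.1 and 28.7 in its controls, a difference of −2.72 (SE 0.28, edgeR adjusted p = 0.0112). Position 684 had 7.93 and 9.41 against 24.2 and 35 in the Snord101 set and 26.1 and 26.6 against 14.8 and 13.9 in the Snord89 set, a difference of −2.65 (SE 0.29, edgeR adjusted p = 0.0152). Groups did not overlap in either set at either position. Without any 1 of the ASO libraries or of the Snord89-set controls, neither position passed.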

How the data were processed

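The deposited tables give, for each position of the 45S, a count of read ends per library and a score, a fraction from 0 to 1. Per the file headers, the authors counted 5′ ends in ESC and 5′ plus 3′ ends in neurons. Trim Galore, cutadapt, Bowtie2 and bedtools are named in the submitters' processing notes; versions, build and filters are not given in the sources used here. The deposited score was recomputed from the counts and matched within 1e-06 at every scored 5′ ETS position.

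From the counts, read ends per 1000000 45S ends (EPM) were computed. Levels were compared by two-sided exact permutation over libraries. Windows of 100 positions and single positions (mean count of at least 10) were tested with edgeR 4.0.16 in R 4.3.3, quasi-likelihood, library size set to all 45S ends. Flank tests used the log of the weighted flanking count (6 positions on each side, weights 1 to 0.5, at least 10) as offset. P-values were adjusted by Benjamini-Hochberg over the whole 45S or table, threshold 0.05. The tests were tried on simulated data. Alternatives were TMM factors, DESeq2 1.42.0, limma 3.58.1, other filters, windows and thresholds, a replicate block and leaving out each library. Precision is limited by 2 libraries per group at 16170997 to 143176321 45S ends; p-values measure the spread between these libraries.

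Named positions were the end peaks, up to 10 called positions per test with the largest changes and no overlap, the called windows, the fullest and emptiest windows, the 5 fullest positions of the early cleavage region, the highest scores at a flanking count of at least 100, and positions named in earlier results; others are named from the called lists after their values were seen. The positions and lists were chosen with earlier results of these data known. No 45S sequence was used here. The sequence of the other targeting ASO is not reported here.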

Additional observations from a re-analysis of the deposited data

Results flagged for a closer look

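Positions 681 and 684, both in the third end cluster of the early cleavage region, were picked out because the difference between the Snord101 and Snord89 effects on their share of 45S ends was itself past the threshold. The log2 Snord101 change minus the log2 Snord89 change was −2.72 at 681 and −2.65 at 684 (edgeR adjusted p = 0.0112 and 0.0152). At both positions both Snord101 ASO libraries lay below both of their controls and both Snord89 ASO libraries lay above theirs. Over 11 alternatives the difference ran from −2.92 to −2.50 at 681 and from −2.89 to −2.36 at 684, with edgeR adjusted p from 0.000257 to 0.163 and from 0.000257 to 0.298. It passed in 5 and 4 of the 11 alternatives. The Snord89 change on its own did not pass at either position (log2 0.59 and 0.88, edgeR adjusted p = 0.28 and 0.155), and the controls of the 2 sets differed there, at 70.4 and 93.9 read ends per 1000000 45S ends against 32.1 and 28.7 at 681.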

How the results depend on the processing

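The 3 level comparisons kept a negative sign under every denominator, without the last 20 positions or the end peaks and without any 1 library, from −0.31 to −0.0035 for Snord101, −0.31 to −0.17 for Snord89 and −0.31 to −0.12 for both. Counts of calls moved with the libraries and the test. Leaving out 1 library each gave, for Snord101, 38 to 616 positions, 0 to 9 windows and 0 to 878 positions against flanks. The same ranges for Snord89 were 12 to 928, 0 to 36 and 0 to 91, and for the difference between effects 0 to 2 windows and 0 to 12 positions; ESC positions scored at least 0.75 numbered 283 to 347. Position calls for Snord101 (28) became 7 with TMM factors, 75 with DESeq2 and 58 with all 4 neuron groups in 1 fit. Those are 0.177%, 1.90% and 1.47% of the spacer positions tested, against 0.394%, 3.78% and 2.30% over the 45S in the same fits. For Snord89 (2) they became 4, 15 and 0, which is 0.102%, 0.383% and 0%, against 0.21%, 0.846% and 0.0387%. At a mean count of at least 100 Snord89 had 0, against 0.0906%. Window calls for Snord101 (0) became 2 with DESeq2 (4.88% against 5.19% over the 45S). For Snord89 (1) they became 0 with TMM factors, DESeq2, 1 fit of 4 groups and windows of 50 or 200 positions, against at most 0.741% over the 45S. Calls against flanks (8 and 8) became 3 and 0 where the mean score had to reach 0.5 (0.754% and 0%, against 1.01% and 0.546% over the table). They were 0 in both sets with limma, against 0%, and 5 for Snord89 at a flanking count of at least 100 (0.337% against 0.279%). With the ends of positions 1 to 3987 as library size, an alternative chosen after seeing the data, there were 267 positions and 1 window for Snord101 and 29 and 0 for Snord89. For Snord101 these are 6.76% and 2.44%, against 6.38% and 1.48% over the 45S, and for Snord89 0.740% and 0%, against 1.86% and 0%. The 267 were 156 higher and 111 lower, where the main split was 0 and 28. The window at 601 to 700 changed sign for Snord89, at 0.014 with TMM factors, 0.074 with DESeq2 and 0.21 with that library size. The cause of these differences was not tested.

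Libraries with the same letter did not deviate together (correlation −0.0996 in the Snord101 set and 0.00599 in the Snord89 set over 3925 positions), so the letters were not taken as pairs. With a replicate block, position calls were 22 for Snord101 (0.557% against 0.749% over the 45S) and 141 for Snord89 (3.60% against 3.80%). Snord89 windows were 3 (7.32% against 10.4%). Calls against flanks were 3 (0.0755% against 0.223%) and 23 (0.58% against 1.69%), and positions that differed between effects 1 (0.0253% against 0.0155%). A threshold of 3 or 10 times the flanks gave 19 or 1 end peaks in ESC, 9 or 2 in the Snord101 set and 11 or 1 in the Snord89 set. A score threshold of 0.5 or 0.9 gave 516 or 94, 216 or 14 and 191 or 12 positions, and a flanking count of at least 100 left 17 in ESC. Depth limits the ESC spacer most, where 190 positions had no end in either library.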
